A study of Danio rerio with 12 samples.

Results

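The genes described here are the keratins krt4 and krt8, the claudin cldni and the cell adhesion gene epcam of the zebrafish. They were found by gene symbol in the annotation of the array: 4 genes with 5 probe sets, of 15502 probe sets without controls. The gene krt4 (NCBI gene 794486) is measured by probe set Dr.4387.1.S1_at, krt8 (797433) by Dr.1282.1.S1_at and cldni (569084, also named cldn32) by Dr.3499.2.S1_a_at. For epcam (406454) there is a brighter probe set, Dr.25140.7.A1_a_at, and a dimmer one, Dr.26518.1.A1_x_at, whose _x_ name marks probes that may also match other sequences. RefSeq lists krt8 as an older name of krt4 as well, so the 2 keratins are told apart here by gene ID. The 4 genes were chosen by their signals on these same arrays, which were higher in the flank than in the center of the tailbud. That difference, and the 2 sides of the flank, are therefore described and not tested. Tests were made only between positions outside that difference. Earlier results of these data were known when the genes and lists were chosen, so full independence of these tests cannot be shown.

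Keratins are the intermediate filament proteins of epithelia. They form filaments from a type II and a type I partner, krt8 being type II and krt18a.1 coding for a type I partner. Claudins are membrane proteins that seal the tight junctions between epithelial cells, and EpCAM is a membrane glycoprotein through which epithelial cells adhere. In the zebrafish embryo, krt4 marks the periderm, the outermost layer of the skin, while the basal epidermis under it expresses the transcription factor gene tp63. The paraxial mesoderm, the tissue that was dissected, lies beneath this epidermis and forms the somites, the precursors of muscle and the axial skeleton.

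Wild-type AB embryos were raised at 23 °C and dissected at 24 °C at the 12-somite stage, with no mutant or treatment. The tailbud gave position 1, its center, and position 2, its flank. The presomitic mesoderm (PSM) follows, with position 3 posterior, 4 in its center and 5 anterior, and position 6 is the last formed somites. There are 12 arrays, 2 for each position, which the labels call biological replicates. At position 2, replicate 1 is the left flank and replicate 2 the right flank. How many embryos each sample holds is not stated in the labels, so the p-values measure the spread between these samples. That spread is pooled over all 6 positions. It therefore includes the difference between the left and right flank and the arrays of the 2 tailbud positions that chose the genes. The series addresses how transcript levels change along this tissue, from the tailbud to the somites.

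The values are MAS5 signals, a brightness per probe set on a linear scale, and the median signal per array ran between 27.3 and 68.4, with the somite arrays at 27.3 and 33.7. Replicates correlated across probe sets, which are not independent of each other, with r of 0.831 (position 2) to 0.968 (position 6). Of 19 marker genes of the paraxial mesoderm, 13 differed among positions 3 to 6 in limma's moderated F test (adjusted p under 0.05), where 4.64% of all tested probe sets did. The dissected tissue was measured in bulk, so fewer epithelial cells and less RNA per cell cannot be told apart in any value below.

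The signal of krt4 was 41.9 and 49.5 at the center of the tailbud, 1350.5 (right) and 384.1 (left) at its flank, and 1543.6 and 871.3 in the posterior PSM. It was 1746.4 and 1562.5 in the center PSM, 1407.2 and 621.2 in the anterior PSM, and 179.0 and 506.7 in the last formed somites. The center of the tailbud was thus lowest, the somites were next, and all 6 PSM arrays lay above both. In order of the position means, the center of the tailbud (45.7 ± 5.37, SD, n = 2 as for all means here) lay below the somites (343 ± 232) with no overlap. The somites, the flank (867 ± 683), the anterior PSM (1014 ± 556) and the posterior PSM (1207 ± 475) each overlapped their neighbour in the order. The center PSM was highest (1654 ± 130), and its arrays lay above both of the posterior PSM.

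The other keratin, krt8, had signals of 118.7 and 101.0 at the center of the tailbud, 790.6 (right) and 360.3 (left) at the flank, and 882.8 and 556.1 in the posterior PSM. Further forward it had 1015.8 and 1124.7 in the center PSM, 677.8 and 372.4 in the anterior PSM, and 120.7 and 196.5 in the somites. Both ends of the series were therefore low, and their 4 arrays lay under the other 8. This held for 4 of the 5 probe sets, all but krt4, against 1.65% of all, and it rests in part on the difference that chose the genes. The ends themselves did not overlap, at 110 ± 12.5 for the center of the tailbud and 159 ± 53.6 for the somites. The anterior PSM (525 ± 216), the flank (576 ± 304) and the posterior PSM (720 ± 231) overlapped in turn, and the center PSM (1070 ± 77.0) stood above them.

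The tight junction gene cldni had signals of 530.3 and 211.4 at the center of the tailbud, 2735.2 (right) and 1699.4 (left) at the flank, and 2468.6 and 1606.3 in the posterior PSM. It had 2081.4 and 1698.1 in the center PSM, 1369.5 and 1193.2 in the anterior PSM, and 392.7 and 1112.2 in the somites. Its order differed from that of the keratins in that the flank (2217 ± 732) had the highest mean, with the posterior PSM (2037 ± 610) and the center PSM (1890 ± 271) overlapping it. The anterior PSM (1281 ± 125) lay below these 3 positions. The somites (753 ± 509) were lower again, without overlap with the anterior PSM, while they overlapped the center of the tailbud (371 ± 226).

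The brighter probe set of epcam had signals of 395.5 and 158.0 at the center of the tailbud, 1764.8 (right) and 815.0 (left) at the flank, and 1406.5 and 947.5 in the posterior PSM. It had 1275.6 and 1348.9 in the center PSM, 623.4 and 611.7 in the anterior PSM, and 75.3 and 158.9 in the somites. Here the somites (117 ± 59.1) had the lowest mean, overlapping the center of the tailbud (277 ± 168). The anterior PSM (618 ± 8.27) lay between these and the posterior PSM (1177 ± 325), the flank (1290 ± 672) and the center PSM (1312 ± 51.8), which overlapped in turn. The dimmer probe set of epcam had 4.3 and 19.7 at the center of the tailbud, 63.0 (right) and 79.4 (left) at the flank, 63.9 and 44.4, 82.6 and 106.5, and 36.0 and 41.9 in the posterior, center and anterior PSM, and 11.6 and 10.9 in the somites. Both epcam probe sets gave the same order of position means. The lowest signals of the dimmer one lay under 12.2, the 25th percentile of all values in the table, where differences on a log scale carry little.

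**Figure D1:**
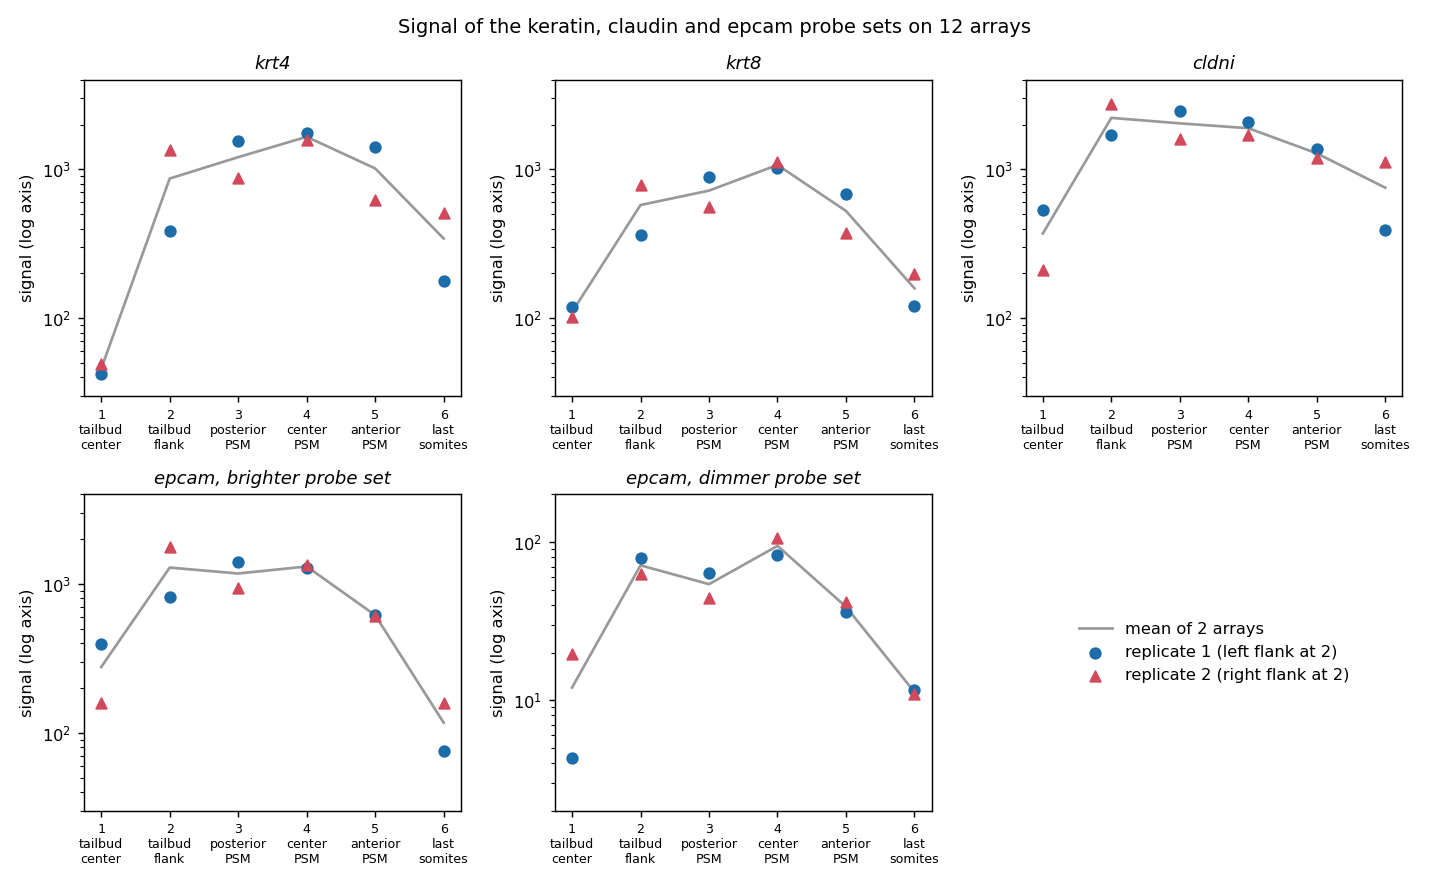
Signal (log axis, MAS5 units) of each probe set on the 12 arrays by position, from the center of the tailbud (1) to the last formed somites (6). Circles are replicate 1 and triangles replicate 2 (left and right flank at position 2), and the line joins the means of 2 arrays. Each panel is low at both ends and high between, and krt4 reaches 1746.4 in the center PSM against 41.9 at its lowest.

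Across positions 3 to 6, which lie outside the difference that chose the genes, the somites stood below the PSM for every probe set. In 5 of 5 probe sets both somite arrays lay below all 6 PSM arrays, a pattern that 13.2% of all tested probe sets showed. The signals were compared as log2(signal + 12.2), which understates changes of dim genes, in 1 limma fit over 12 arrays and 10851 probe sets, with p-values adjusted over all of them by the Benjamini-Hochberg method. The moderated F test for any difference among positions 3 to 6 called 3 of 5 probe sets, where it called 4.64% of all. These were the brighter epcam probe set (limma, adjusted p = 2.52e-05), krt8 (0.00037) and krt4 (0.0201), while cldni (0.0593) and the dimmer epcam probe set (0.144) missed the threshold of 0.05.

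In the last formed somites, 4 of 5 probe sets were lower than in the posterior PSM, against 3.58% of all tested probe sets. The epcam signal was 75.3 and 158.9 in the somites and 1406.5 and 947.5 in the posterior PSM, a log2 difference of -3.25 ± 0.38 (SE, limma, adjusted p = 2.15e-05). The keratin krt8 had a log2 difference of -2.1 ± 0.35 (adjusted p = 0.000877), at 120.7 and 196.5 in the somites and 882.8 and 556.1 in the posterior PSM. The periderm keratin krt4 fell by 1.90 ± 0.49 (adjusted p = 0.0233) and cldni by 1.57 ± 0.40 (adjusted p = 0.0215). The arrays of the 2 positions did not overlap in any of these, and non-overlap in this direction was seen in 34.1% of all tested probe sets. The dimmer epcam probe set had a log2 difference of -1.48 ± 0.60 and was not called (adjusted p = 0.156).

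The calls for krt4 and cldni rest on single arrays and on the scaling. Without replicate 1 of the somites, their log2 differences were -1.18 (limma, adjusted p = 0.296) and -0.83 (adjusted p = 0.330), and without either posterior PSM array neither was called. Centring each array on its median left calls for krt8 (-1.43, adjusted p = 0.0334) and epcam (-2.59, adjusted p = 0.000528) only. That centring moved the median difference of all probe sets to 0.49, against -0.17 as deposited, and the calls over all probe sets to 1241 higher and 109 lower, against 355 higher and 388 lower. Variances without an intensity trend left epcam alone called. All 5 differences stayed negative in all 21 alternatives, 20 for the dimmer epcam probe set, which 1 filter removed.

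The difference between the somites and the tissue next to them, the anterior PSM, was called for 2 of 5 probe sets, against 0.507% of all called lower. The log2 difference was -2.36 ± 0.38 for epcam (limma, adjusted p = 0.00286) and -1.63 ± 0.35 for krt8 (adjusted p = 0.0238). The others were not called: krt4 had a log2 difference of -1.59 ± 0.49 (adjusted p = 0.136), cldni of -0.94 ± 0.40 (0.337) and the dimmer epcam probe set of -1.12 ± 0.60 (0.481). The call for krt8 was lost without replicate 1 of the anterior PSM (-1.21, adjusted p = 0.360), without replicate 1 of the somites (-1.30, adjusted p = 0.182), and under quantile normalization (-1.49, adjusted p = 0.0588) and median centring (-1.12, adjusted p = 0.184). The epcam call held in 20 of 21 alternatives. In the other direction, krt4 was called in 1 of 21 alternatives. There were 0 calls for cldni in 21 and for the dimmer epcam probe set in 20. Without the intensity trend both the krt8 and the epcam call were lost (epcam limma adjusted p = 0.175), and 0 of 10851 probe sets were called.

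Within the PSM no step was called. Between the center and the posterior PSM the log2 differences ran between -0.08 (cldni) and 0.69 (dimmer epcam probe set), with adjusted p between 0.793 and 0.999. Of 5 probe sets, 0 were called and 0 had an unadjusted p under 0.05, against 0.221% of all probe sets called by limma. The anterior PSM had lower means than the center PSM for all 5, with log2 differences between -1.07 and -0.55. Again 0 of 5 were called (limma, adjusted p between 0.421 and 0.834, with 0.212% of all called), and 2 had an unadjusted p under 0.05, krt8 and the brighter epcam probe set, both at -1.07.

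**Figure D2:**
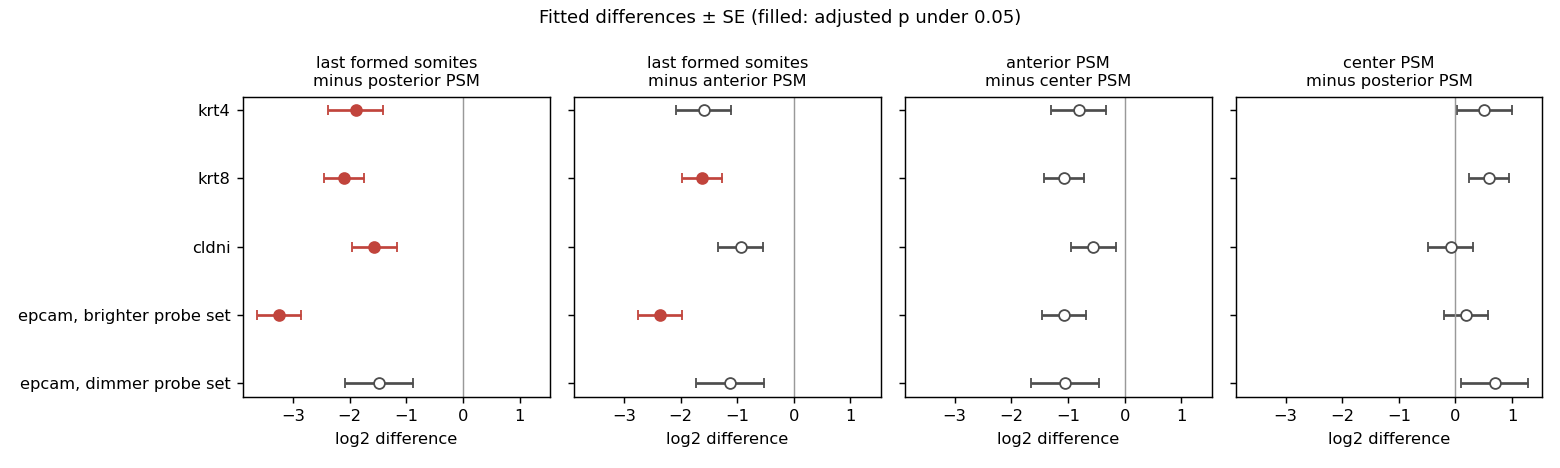
Fitted log2 differences with their SE (bars) for the 5 probe sets in 4 comparisons among positions 3 to 6; filled red points have an adjusted p under 0.05. The somites differ from the posterior PSM in 4 of 5 probe sets and from the anterior PSM in 2, and the 2 steps within the PSM have none.

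The flank stood above the center of the tailbud in all 5 probe sets, which is the difference that chose the genes and is given as a description only. The log2 difference was 3.67 for krt4, 2.64 for cldni, 2.2 for the brighter and 1.86 for the dimmer epcam probe set, and 2.17 for krt8. Both flank arrays lay above both center arrays in each, and the share of all probe sets with this non-overlap was not counted. Such non-overlap of 2 positions can be common. Both somite arrays lay below both posterior PSM arrays in 34.1% of all tested probe sets. By limma's calls, a stricter measure, 1.11% of all tested probe sets were higher in the flank. With median centring that comparison had 57 higher and 216 lower calls over all probe sets, against 120 higher and 46 lower as deposited.

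The right and the left side of the flank differed, and for 4 of the 5 probe sets the right was higher. The krt4 signal was 1350.5 on the right and 384.1 on the left, a ratio of 3.52. For krt8 it was 790.6 and 360.3 (2.19), for epcam 1764.8 and 815.0 (2.17) and for cldni 2735.2 and 1699.4 (1.61). The dimmer epcam probe set went the other way, at 63.0 on the right and 79.4 on the left (0.794). On the log2(signal + 12.2) scale 3 of 5 probe sets were at least 2-fold higher on the right and 0 were lower, where 13.8% of all tested probe sets were higher and 13.4% lower by as much. With 1 array a side this is a difference between 2 arrays and has no test, and the labels count the 2 sides as replicates.

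Differences of this size between the 2 arrays of a position also occurred elsewhere. In the somites, replicate 2 was above replicate 1 by 1.44 for krt4 and 1.47 for cldni on the log2 scale. These were 2 of 5 probe sets at least 2-fold higher, against 3.92% of all. The keratin krt8 (0.65) and the brighter epcam probe set (0.97) lay in the same direction, and the dimmer one had -0.04. In the anterior PSM krt4 was lower in replicate 2, with a log2 difference of -1.16 (1 of 5 probe sets, against 7.07% of all lower by 2-fold), and krt8 had -0.84. In the posterior PSM all 5 probe sets were lower in replicate 2, by -0.82 to -0.43, none by 2-fold. The center PSM had the closest arrays, with differences between -0.29 and 0.32. At the center of the tailbud cldni (-1.28) and the brighter epcam probe set (-1.26) were lower in replicate 2 (2 of 5, against 5.42% of all). The dimmer epcam probe set went the other way there (0.95), at low signals of 4.3 in replicate 1 and 19.7 in replicate 2. The keratins differed by 0.19 (krt4) and -0.21 (krt8). The largest replicate difference of krt4 was thus that of the flank (1.78), and the largest of cldni that of the somites.

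**Figure D3:**
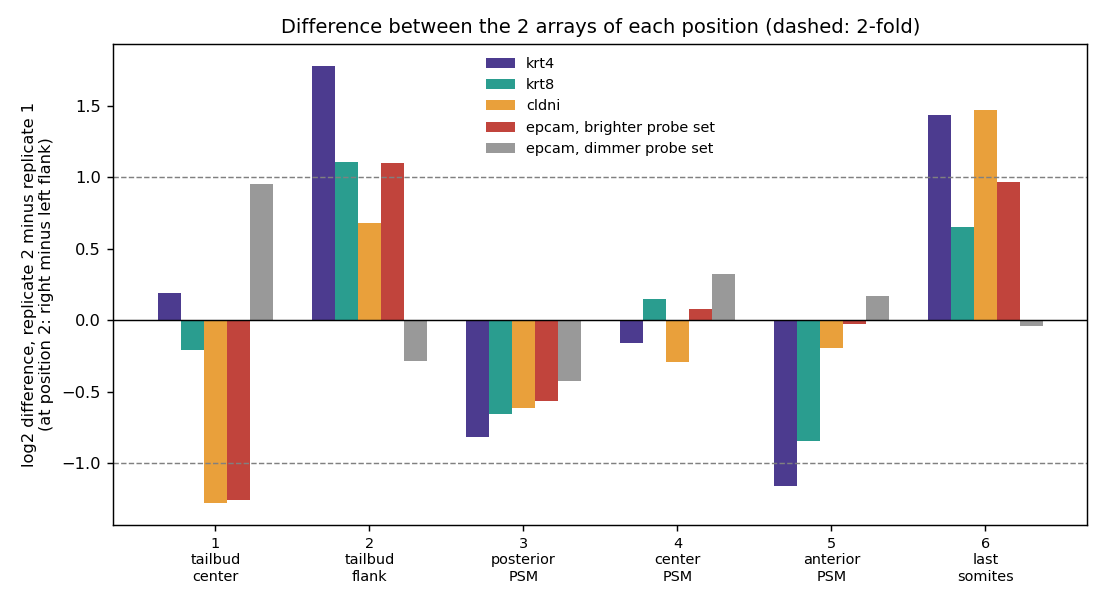
Log2 difference between replicate 2 and replicate 1 of each position (right minus left flank at position 2) for the 5 probe sets, in log2(signal + 12.2) units; the dashed lines mark a 2-fold difference. The flank and the somites have mostly positive bars, up to 1.78 for krt4 in the flank, and the posterior PSM has 5 negative ones.

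Marker genes of other tissues also differed between the 2 flank arrays. Of 16 blood and endothelium genes on the array 12 were tested, and 10 were at least 2-fold higher and 2 at least 2-fold lower on the right, with a median log2 difference of 1.97. Of all tested probe sets 13.8% were higher and 13.4% lower by as much, with a median of -0.01, and the counts below are read against these. The embryonic globin gene hbae3 was at 676.6 on the right and 17.6 on the left, and gata2a, a transcription factor gene of blood and of epidermis, at 409.1 and 14.1. The summed signal of the 16 genes was 3286 on the right and 699 on the left. Of the 21 periderm and epidermis genes 14 were tested, and 5 were higher on the right and 1 lower by at least 2-fold (median 0.73). The annexin genes anxa1c (310.7 on the right, 5.4 on the left) and anxa1b (118.3 and 4.6) and the keratin krt17 (303.4 and 35.0) differed most. The summed epidermal signal was 4659 on the right and 2656 on the left. Paraxial mesoderm genes went the other way, with 1 of 19 higher and 5 lower on the right (median -0.71), as did notochord genes, with 2 of 14 tested higher and 6 lower (median -0.81). Neural tube (median -0.42 over 12) and muscle genes (-0.43 over 11) each had 1 higher and 4 lower. Of 12 tested epidermal transcription factor genes 3 were higher and 2 lower (0.16), and of 11 epithelial membrane and protease genes 2 and 0 (0.66). Other claudins had 2 and 2 of 13 (-0.05), and other tight junction genes 3 and 1 of 9 (0.74). Desmosome genes had 2 and 1 of 9 (0.03), and adherens junction genes 0 and 0 of 8 (-0.08). Hatching gland genes, a list that includes tfap2a, had 2 and 0 of 5 (0.82). Endoderm and yolk syncytial layer genes had 2 and 2 of 9 (-0.19), and other intermediate filament genes 0 and 0 of 5 (0.05). The part of the tissues marked by these genes in the signals of krt4, krt8, cldni and epcam was not tested.

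The keratins beside krt4 and krt8 did not all follow them across the flank. A list taken by name held 15 genes, 13 keratins and the S100 protein genes icn and icn2, of which 12 were tested. On the right side 3 were at least 2-fold higher and 3 lower (median 0.16). Among the lower ones, krt99 was at 19.9 on the right and 161.9 on the left, and krt95 at 11.4 and 69.5. The filament partner krt18a.1 was at 1154.8 on the right and 524.2 on the left.

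In the somites against the posterior PSM, 2 of these 12 were lower and 0 higher, where 3.58% of all tested probe sets were lower and 3.27% higher. Their median log2 difference was -1.14, and the median of all tested probe sets was -0.17. The keratin krt97 had signals of 3.1 and 25.7 in the somites and 180.8 and 254.1 in the posterior PSM (-3.23 ± 0.44, limma, adjusted p = 0.000114). The epidermal keratin krt5 had 27.4 and 116.3 in the somites and 384.7 and 196.1 in the posterior PSM (-2.01 ± 0.50, adjusted p = 0.0201). The krt18a.1 signal was 82.5 and 248.1 in the somites, against 637.3 and 277.9 in the posterior PSM, and it differed among positions 3 to 6 in the F test (limma, adjusted p = 0.0266). The list's median was -0.41 with quantile normalization and -0.47 with median centring, with 1 gene called lower in each. The medians of all probe sets were 0.05 and 0.49 under these scalings, and 255 and 109 of 10851 were called lower.

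Other junction genes were called in both directions between the somites and the posterior PSM, where 3.27% of all tested probe sets were called higher and 3.58% lower. Of 13 tested claudins on a list of 23 others, 1 was higher in the somites than in the posterior PSM, cldn11b (2.09 ± 0.45, limma, adjusted p = 0.00724), and 1 was lower, cldn7b (-1.58 ± 0.43, adjusted p = 0.0331). The lower call was lost with quantile normalization and with median centring. The claudins' median was -0.62 as deposited, with 9 of 13 below 0, and turned to 0.05 with median centring, against 0.49 for all probe sets. Of 9 tested genes of other tight junction proteins, the scaffold gene tjp2b was higher (2.04 ± 0.35, adjusted p = 0.00103). The junctional adhesion molecule gene f11r.1 (-2.06 ± 0.39, adjusted p = 0.00282) and the occludin gene oclna (-1.84 ± 0.43, adjusted p = 0.0124) were lower. In this list 1 gene was called lower with quantile normalization and 0 with median centring. Of 8 adherens junction and 9 desmosome or hemidesmosome genes tested, limma called 0, while 3 and 4 had an unadjusted p under 0.05. The desmosome and hemidesmosome genes had a median of -1.03, with 8 of 9 below 0. The adherens junction genes had a median of 0.06. That median was -0.13 with quantile normalization, with 1 gene called lower, and 0.72 with median centring, with 1 called higher. The medians of all probe sets were 0.05 and 0.49 under these 2 scalings. Over all 10851 probe sets the first gave 244 higher and 255 lower calls, and the second 1241 higher and 109 lower.

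Among 11 tested epithelial membrane and protease genes 2 were lower in the somites than in the posterior PSM. The counts here are read against 3.27% of all tested probe sets called higher and 3.58% lower. The splicing regulator gene esrp1 had a log2 difference of -1.80 ± 0.39 (limma, adjusted p = 0.00789) and the galectin gene lgals3b of -1.73 ± 0.43 (adjusted p = 0.0200). The E-cadherin gene cdh1 was not called, at 157.3 and 361.8 in the somites and 783.0 and 489.8 in the posterior PSM. Of 12 tested epidermal transcription factor genes 4 were lower: ved (-3.46 ± 0.57, adjusted p = 0.000791), tfap2a (-1.87 ± 0.44, adjusted p = 0.0134), grhl1 (-2.65 ± 0.71, adjusted p = 0.0294) and tp63 (-1.27 ± 0.38, adjusted p = 0.0482). The ved gene was also lower in the center (mean 15.5) than in the posterior PSM (188), at -2.87 ± 0.57 (limma, adjusted p = 0.0404). Its course thus differed from that of the other called genes of this list. In the center PSM tfap2a (1460.4 and 1543.7) and grhl1 (137.6 and 137.3) lay above both posterior PSM arrays, and tp63 had 410.9 and 447.9. Between the center and the posterior PSM 0 of the 5 probe sets of krt4, krt8, cldni and epcam were called, and 0.221% of all. The tp63 signal was 82.7 and 190.6 in the somites and 454.4 and 227.8 in the posterior PSM. With quantile normalization 1 of the membrane and protease genes and 2 of the transcription factor genes were lower. With median centring 0 of the membrane and protease genes and 1 of the transcription factor genes were lower, and 1 of the membrane and protease genes was higher. Of all 10851 probe sets, 244 were called higher and 255 lower with quantile normalization, and 1241 higher and 109 lower with median centring.

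Beside these values, the summed signal of the 21 periderm and epidermis markers was 452 and 1324 in the somites and 2569 and 1870 in the posterior PSM. Of 14 tested, 2 were lower (median -1.05), krt5 and tp63, which are also on the lists above. With quantile normalization (median -0.54, against 0.05 for all probe sets) or median centring (-0.38, against 0.49) 0 were called. Some genes of other tissues were called too, read against 3.27% of all called higher and 3.58% lower. Of 12 tested neural tube genes 3 were lower in the somites (median -1.87), and of 14 notochord genes 2 were lower (-1.14), tbxta and lamc1. The tbxta gene is also on the paraxial mesoderm list, where 8 of 19 were lower and 3 higher (-0.81). With median centring that list had 8 lower and 6 higher. Of 9 endoderm and yolk syncytial layer genes 0 were called (-1.25). Of 11 muscle genes 3 were higher (1.48), and of 12 blood and endothelium genes 1 was higher (1.27). With quantile normalization the counts were 3 neural tube and 1 notochord genes lower, and 3 muscle and 0 blood and endothelium genes higher. With median centring they were 3 and 1 lower, and 8 and 5 higher. Over all 10851 probe sets, quantile normalization gave 244 higher and 255 lower calls, and median centring 1241 higher and 109 lower. The counts under these scalings are read against those calls. The part of these tissues in the somite difference of krt4, krt8, cldni and epcam was not tested.

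**Figure D4:**
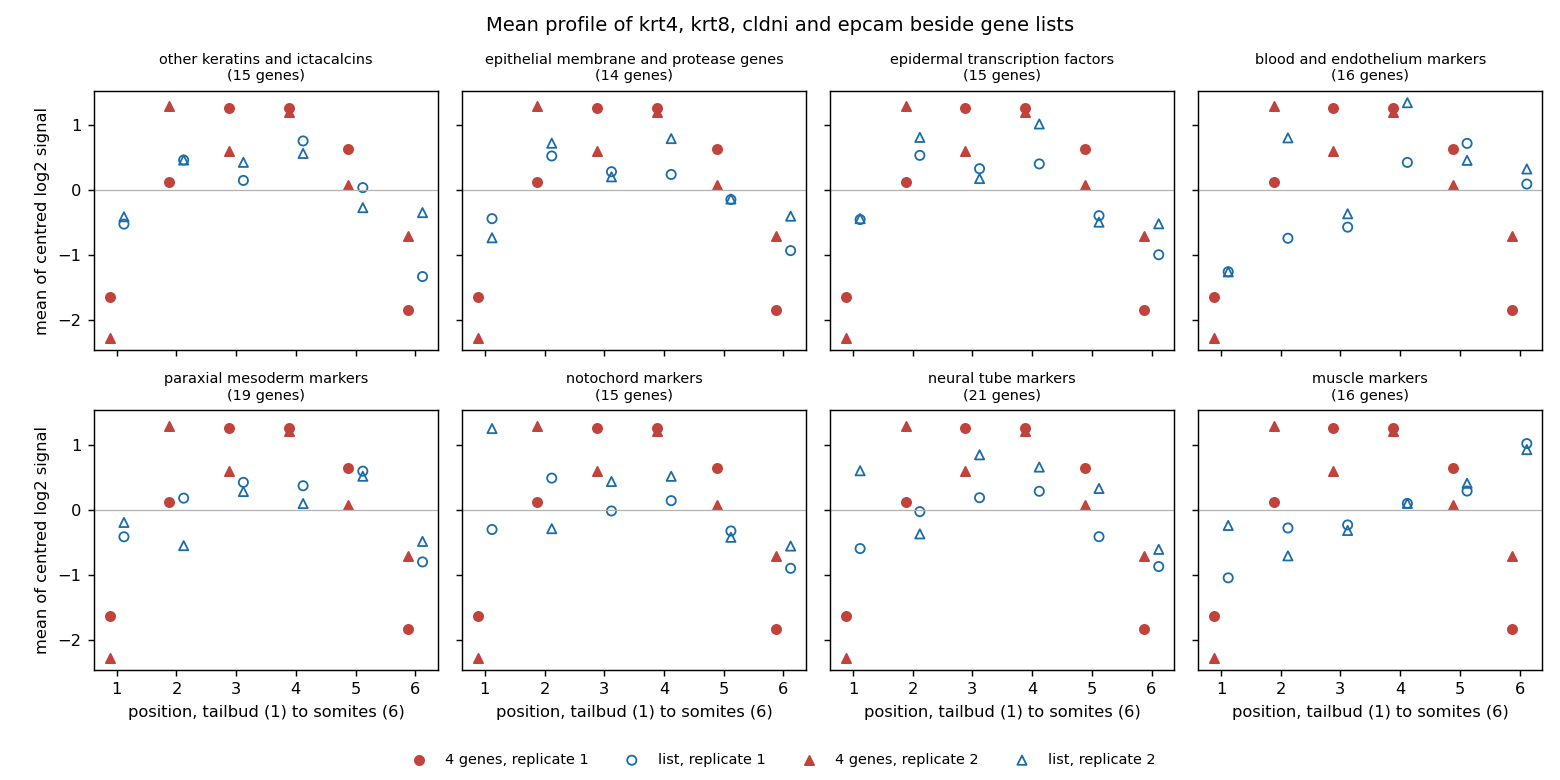
Mean over genes of the log2(signal + 12.2), centred per gene, on each array, by position from the tailbud (1) to the somites (6). Red symbols are krt4, krt8, cldni and epcam, and open blue symbols a gene list named in each panel title (circles replicate 1, triangles replicate 2). The 4 genes run between -2.28 and 1.29; the muscle list is highest in the somites, and the blood list is at 0.80 on the right flank array and -0.74 on the left.

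The 5 probe sets varied together over the 12 arrays, with Pearson r on the log2 scale between 0.718 (krt4 and the brighter epcam probe set) and 0.939 (krt4 and krt8). Over the 8 arrays of positions 3 to 6 alone the r lay between 0.778 and 0.969, again highest for krt4 and krt8. The r over the 12 arrays rest in part on the difference between the flank and the center of the tailbud, which chose the genes. The points share their arrays, scaling and dissections, so these values describe the arrays. The mean centred level of the 4 genes was -1.64 and -2.28 at the center of the tailbud, 1.29 (right) and 0.13 (left) at the flank, and 1.26 and 0.60 in the posterior PSM. It was 1.26 and 1.21 in the center PSM, 0.64 and 0.08 in the anterior PSM, and -1.84 and -0.71 in the somites. The right flank array was therefore at the level of the center PSM, and the left one lay between the 2 anterior PSM arrays.

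Of 4607 other named genes whose highest position mean exceeded the median tested signal, 97.3, 101 correlated with this mean at r of 0.8 or more, and the median r was 0.01. The 10 nearest over the 12 arrays were gpa33a, an immunoglobulin-family membrane protein gene known in mammals from gut epithelium (r = 0.978), tagln2 (0.973), tmsb1 (0.970), tp63 (0.966), cfl1l (0.962), lama5 (0.962), apoc1 (0.961), mat1a (0.956), sdr16c5a (0.955) and pfn1 (0.952). Among them tagln2, tmsb1, cfl1l and pfn1 belong to the transgelin, thymosin, cofilin and profilin families of actin-binding proteins, and lama5 codes for a laminin chain of the basement membrane. Over the 8 arrays of positions 3 to 6 the 5 nearest were gpa33a (0.998), tagln2 (0.991), pdxdc1 (0.987), mat1a (0.984) and the actin crosslinker gene actn1 (0.982).

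The nearest gene, gpa33a, had signals of 259.3 and 100.4 at the center of the tailbud, 1678.6 (right) and 1022.1 (left) at the flank, 1385.6 and 882.5 in the posterior PSM and 1277.6 and 1175.2 in the center PSM. It had 811.5 and 599.7 in the anterior PSM and 158.2 and 368.5 in the somites. Its low ends and higher right flank describe the likeness by which it was ranked first, and are no separate result. Of the compared members of each list, r reached 0.8 in 7 of 8 epithelial membrane and protease genes (median 0.85), 3 of 7 other keratins and S100 genes (0.737) and 4 of 11 periderm and epidermis markers (0.688). It did so in 3 of 10 epidermal transcription factor genes (0.548), 1 of 7 other claudins (0.271), 0 of 5 desmosome genes (0.562), 0 of 9 blood and endothelium genes (0.507) and 0 of 19 paraxial mesoderm genes (0.225). Of the other lists, endoderm and yolk syncytial layer markers had 1 of 3 (0.684), hatching gland markers 1 of 4 (0.52), other tight junction genes 2 of 8 (0.394), adherens junction genes 1 of 8 (-0.044) and notochord markers 1 of 8 (-0.274). Neural tube (median 0.06 over 8), muscle (-0.209 over 7) and other intermediate filament genes (0.205 over 3) had 0. The r in these list counts and of the 10 nearest genes were taken over all arrays. These include the center and flank of the tailbud, whose difference chose the genes. The order of the lists therefore rests in part on that difference, and a list higher in the flank is favoured by it. Whether the order holds over the PSM and somite arrays alone was not tested.

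**Figure D5:**
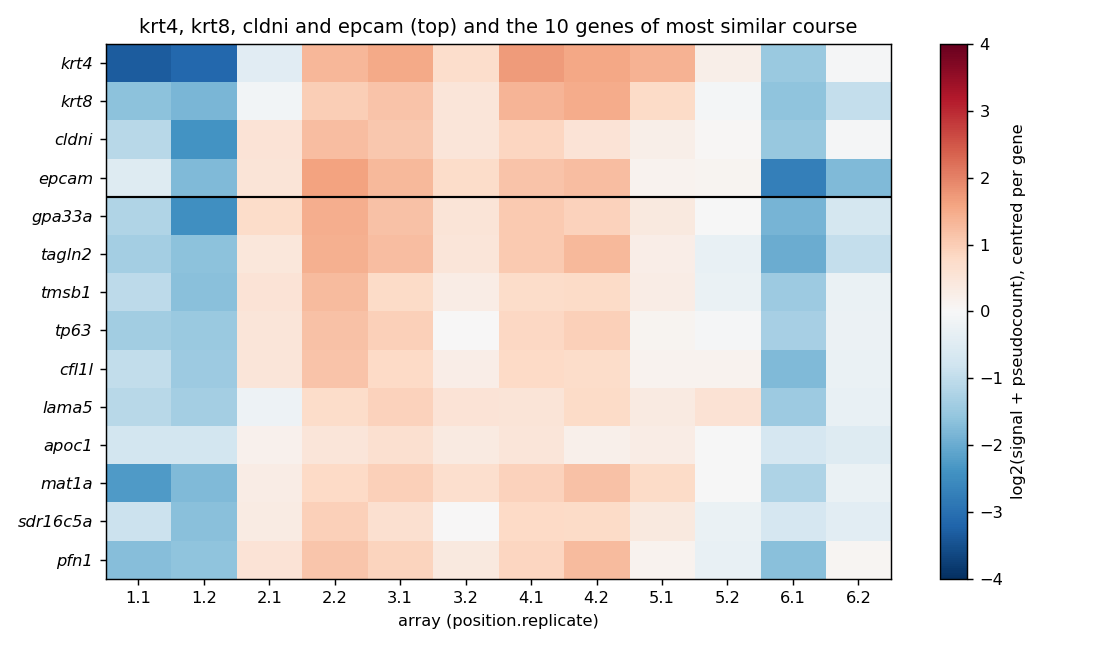
Log2(signal + 12.2), centred per gene, of krt4, krt8, cldni and epcam (above the line) and of the 10 genes with the highest Pearson r to their mean, on the 12 arrays (position.replicate, so 2.1 is the left and 2.2 the right flank). All 14 genes are below their own mean at position 1 and on the first somite array (6.1) and above it on 2.2, 3.1, 4.1 and 4.2; these 10 genes were selected for this likeness.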

How the data were processed

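The authors deposited 1 intensity per probe set and array, on a linear scale, made with MAS5 per the submitters' processing notes, with no version named. Every array had a trimmed mean of 150 (2% left out at either end), the mark of a single scaling factor each. No detection calls come with the signals. Of 15617 probe sets 115 controls were left out, and 10795 of the others carry 1 gene symbol, 135 several and 4572 none.

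Here log2(signal + 12.2), with the 25th percentile as pseudocount, was fitted in R 4.3.3 with limma 3.58.1 (1 mean per position, variances with an intensity trend, 6 residual and 12.8 prior degrees of freedom). Probe sets with a mean under the 30th percentile (4651) were left out. Tests were two-sided, with Benjamini-Hochberg adjustment over 10851 probe sets and a threshold of 0.05. The procedure was run on simulated data with independent normal noise per probe set and known shifts added at position 6 only. That simulation modelled neither array scaling nor a difference between the left and right flank, so it cannot speak to those. The number of arrays limits the precision.

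The genes and lists were chosen with earlier results of these data known. List genes named are those called (at most the 4 of smallest adjusted p) or, between the flanks, the 3 of largest difference; others named (krt18a.1, cdh1) are examples chosen after their values were seen. Some genes are on 2 or more lists, such as cdh1, krt5, tp63, tfap2a and krt18a.1, and count in each. Likeness was ranked by Pearson r. Alternatives were other scalings, pseudocounts, filters and variances, a replicate block, fewer positions, 1 value per gene, and each array left out.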

Additional observations from a re-analysis of the deposited data

How the results depend on the processing

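For krt4, krt8, cldni and epcam, the differences between the somites and the posterior or anterior PSM kept their sign under all alternatives run; gene lists were recomputed under the 2 other scalings only. For the somites against the posterior PSM, 4 of 5 probe sets were called; 2 were called with median centring, 1 without the intensity trend, and 2 to 4 when each array was left out (2 without replicate 1 of the somites or either posterior PSM array). For the somites against the anterior PSM, 2 were called; 1 with quantile normalization, 1 with median centring, 0 without the intensity trend, and 1 to 2 with each array left out. The F test called 3; without the intensity trend 1, and 2 to 4 with each array left out. In the center against the posterior PSM, cldni turned to 0.23 without replicate 1 of the posterior PSM and to 0.06 without replicate 2 of the center PSM, and epcam to -0.10 without replicate 2 of the posterior PSM, all uncalled. Over the single arrays left out, cldni lay between -0.39 and 0.23 and the brighter epcam probe set between -0.10 and 0.46. Between the flank and the center of the tailbud the dimmer epcam probe set was at 1.52 with quantile normalization, 1.38 with median centring, 2.94 without a pseudocount and 0.97 with the median as pseudocount, against 1.86. Over all probe sets, 743 were called for the somites against the posterior PSM, 499 with quantile normalization, 1350 with median centring and 248 without the intensity trend. Same-numbered arrays showed no large shared deviation: their deviations correlated between -0.0707 and 0.0848 over 15 pairs of positions. These values cannot show whether same-numbered samples came from the same embryos. With the replicate block, the calls were 3 for the F test, 4 and 2 for the 2 somite comparisons, and 0 for both PSM steps. With 2 arrays a position and no detection calls, the dimmer epcam probe set, near the pseudocount at both ends, limits what can be said of small differences.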
